A study of Mus musculus with 14 samples.

Results

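Chil3, Msr1, Pla2g7 and Hal are 4 genes whose levels were higher in neonatal mouse lung without Atxn1l, and they are described here on every array of the study. They are 4 of 21212 probe sets, each built for 1 Entrez gene, and Chil3 goes by its older symbol Chi3l3 in some tables. They were selected on measured values, their higher log2 levels in Atxn1l knockouts than in wild types among the few probe sets that passed limma's test, so their values in that comparison are a description and no test of it is made. Lungs were dissected at postnatal day 6 (P6) from C57BL/6J mice and total RNA was hybridised to 1 Affymetrix mouse Gene ST array per sample. The Atxn1l set held 4 knockouts (genotype Atxn1L -/-) and 4 wild types (WT) from intercrosses of Atxn1l heterozygotes. The Atxn1 set held 3 knockouts (Atxn1 -/-) and 3 wild types from intercrosses of Atxn1 heterozygotes. Both alleles are missing throughout the animal and not in 1 cell type, as far as the labels say. Neither sex nor litter is stated, and which arrays were collected as pairs is not given either. Where nothing says more than this about the samples, p-values measure only the spread between the samples of the set that was tested.

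Atxn1l encodes a paralog of ataxin-1, and both proteins bind the transcriptional repressor Capicua. The study asked how lung transcripts differ once either gene is deleted. Alveolar macrophages of the lung arise from precursors that settle in the airspaces around birth, where they clear surfactant, dying cells and microbes. Chil3 encodes Ym1, a secreted chitinase-like protein without chitin-cleaving activity that is abundant in alveolar macrophages and also made by myeloid precursors. Msr1 encodes the class A macrophage scavenger receptor, a trimeric surface receptor for modified lipoproteins and bacterial polyanions. Pla2g7 encodes a secreted phospholipase that inactivates platelet-activating factor and cleaves oxidised phospholipids. Hal encodes histidine ammonia-lyase, which starts histidine breakdown by making urocanate and is best known from liver and skin rather than from macrophages.

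RefSeq promoters of GRCm38.p6 matched 3 of the 4 genes, and they are shown to compare motifs between genes that lay higher in the same lungs. Each runs 5′ to 3′ on the strand of the gene, from 250 bases before to 50 bases after the annotated start. Capitals mark every match, on either strand, to GGAAGT (an ETS core with the T favoured by PU.1), GAGGAAGT (a longer PU.1 site that contains it), TTGCNNAA (C/EBP), TGAATGAA and TGAATGGA (Capicua). They also mark TGANTCA, the site of the factor AP-1. The letters TATAAA stand for the core promoter element of that name. The Chil3 window is chr3:106167515-106167814 on the minus strand, that of Pla2g7 chr17:43568201-43568500 on the plus strand and that of Hal chr10:93488518-93488817 on the plus strand.
Chil3: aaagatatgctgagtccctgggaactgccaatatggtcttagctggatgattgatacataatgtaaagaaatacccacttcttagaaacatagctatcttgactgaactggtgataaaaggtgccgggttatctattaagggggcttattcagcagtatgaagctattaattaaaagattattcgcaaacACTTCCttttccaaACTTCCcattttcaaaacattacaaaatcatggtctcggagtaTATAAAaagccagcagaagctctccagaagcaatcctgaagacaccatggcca
Pla2g7: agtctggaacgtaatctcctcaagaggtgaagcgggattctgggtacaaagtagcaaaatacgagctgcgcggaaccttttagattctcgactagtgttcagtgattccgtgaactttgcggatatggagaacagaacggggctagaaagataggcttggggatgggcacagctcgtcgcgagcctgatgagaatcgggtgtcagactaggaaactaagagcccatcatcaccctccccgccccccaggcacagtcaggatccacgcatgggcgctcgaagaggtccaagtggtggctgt
Hal: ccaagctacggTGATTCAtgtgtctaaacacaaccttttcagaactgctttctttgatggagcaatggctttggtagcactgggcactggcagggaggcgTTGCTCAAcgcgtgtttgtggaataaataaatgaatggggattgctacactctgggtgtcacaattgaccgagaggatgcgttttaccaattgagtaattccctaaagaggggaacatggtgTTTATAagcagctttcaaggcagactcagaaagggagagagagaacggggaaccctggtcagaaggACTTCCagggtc

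The Chil3 window held 2 reverse matches to GGAAGT, starting 60 and 46 bases before the start, and TATAAA starting 3 bases before it. Hal held TGATTCA 239 bases and TTGCTCAA 150 bases before the start, TATAAA in reverse 28 bases before it and GGAAGT in reverse 39 bases after it. Pla2g7 had no match to any of these letters. None of the 3 windows held either Capicua octamer. Over all 32851 promoters of the same length, GGAAGT was found in 23.8%, GAGGAAGT in 3.2%, TTGCNNAA in 10.8%, TGAATGAA in 1.3%, TGAATGGA in 1.21%, TGANTCA in 7.81% and TATAAA in 13.6%. The GC content was 38.7% for Chil3, 47.7% for Hal and 54.0% for Pla2g7, against a median of 52.7%. A match is a description of the letters in the window and not a bound site. Chil3 has a near copy beside it, Chil4 (Ym2), whose window matched that of Chil3 at 251 of 272 aligned positions (92.3%). Short array probes may not separate such copies, so the Chil3 value is uncertain to that extent. Chil4 has a probe set of its own, with 4.86 ± 0.13 in Atxn1l knockouts and 4.64 ± 0.16 in their wild types (SD, n = 4 each).

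Levels are log2 values from RMA, which the authors ran on each set of arrays by itself. The 25th percentile of all probe sets lay between 6.85 and 6.997 on arrays of the Atxn1l set and between 7.75 and 7.94 on those of the Atxn1 set, so a level in one set is not set against a level in the other. Atxn1l, the deleted gene, lay at 6.68 to 7.05 in its knockouts and 9.29 to 9.59 in their wild types. Atxn1 lay at 10.99 to 11.04 in the Atxn1 knockouts and 10.92 to 11.14 in their wild types, and its probe set may lie outside the deleted part, so it does not check that genotype. Markers of lung epithelium and endothelium were high on every array, with a mean log2 level over 8 genes between 12.30 and 12.35 for Atxn1l arrays and between 12.80 and 12.89 for Atxn1 arrays. Among the arrays, 2 stood apart by their neutrophil genes. The mean of 18 such genes was 9.60 on Atxn1l knockout replicate 1, against 7.70 to 8.47 on the other 7 arrays of the set. It was 10.09 on wild type replicate 3 of the Atxn1 set, against 8.51 to 8.90 on the other 5. The same 2 arrays also had the highest macrophage means (10.33 and 10.58) and monocyte means (9.42 and 10.37) of their sets. Xist, which marks female cells, was low on Atxn1l knockout replicate 1 (7.04) and high on the other 3 knockouts, and was low on 2 and high on 2 of their wild types. In the Atxn1 set replicate 3 was the single wild type with high Xist (13.04).

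In the Atxn1l set all 4 genes were higher in the knockouts, and for each of them every knockout array lay above every wild type. Chil3 stood at 7.98, 7.50, 7.06 and 7.46 on knockout replicates 1 to 4 and at 6.13, 6.22, 5.91 and 5.89 on wild type replicates 1 to 4. The lowest knockout was 0.84 above the highest wild type, and the knockouts were spread more widely than the wild types, with SDs of 0.38 and 0.17 (n = 4 each). The difference was 1.46 (SE 0.16), a 2.75-fold higher level. Every wild type level of Chil3 was dim, below the 25th percentile of all probe sets on its array (6.85 to 6.997).

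Msr1 was at 9.16, 8.89, 8.91 and 8.93 in the knockouts and at 8.28, 8.31, 8.13 and 8.40 in the wild types. Replicate 1 was the highest knockout, the other 3 lay within a narrow range, and the gap to the wild types was 0.49. The difference was 0.69 (SE 0.08), or 1.62-fold.

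Pla2g7 was at 10.50, 9.82, 10.29 and 10.13 in the knockouts and at 9.26, 9.34, 9.21 and 9.29 in the wild types. The wild types lay close together (SD 0.06, n = 4) and the knockouts did not (SD 0.29, n = 4), with a gap of 0.47 between the groups. The difference was 0.91 (SE 0.12), or 1.88-fold.

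Hal was at 7.30, 7.29, 7.45 and 7.40 in the knockouts and at 6.71, 6.93, 6.83 and 6.61 in the wild types. Here replicate 1 was not the highest knockout, and the knockouts were the more even group (SD 0.08 against 0.14, n = 4 each). The gap was 0.36 and the difference 0.59 (SE 0.07), or 1.503-fold. As for Chil3, every wild type level of Hal was dim, below the 25th percentile of its array. In whole lung, more cells that carry a transcript and more of it per cell cannot be told apart.

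**Figure D1:**
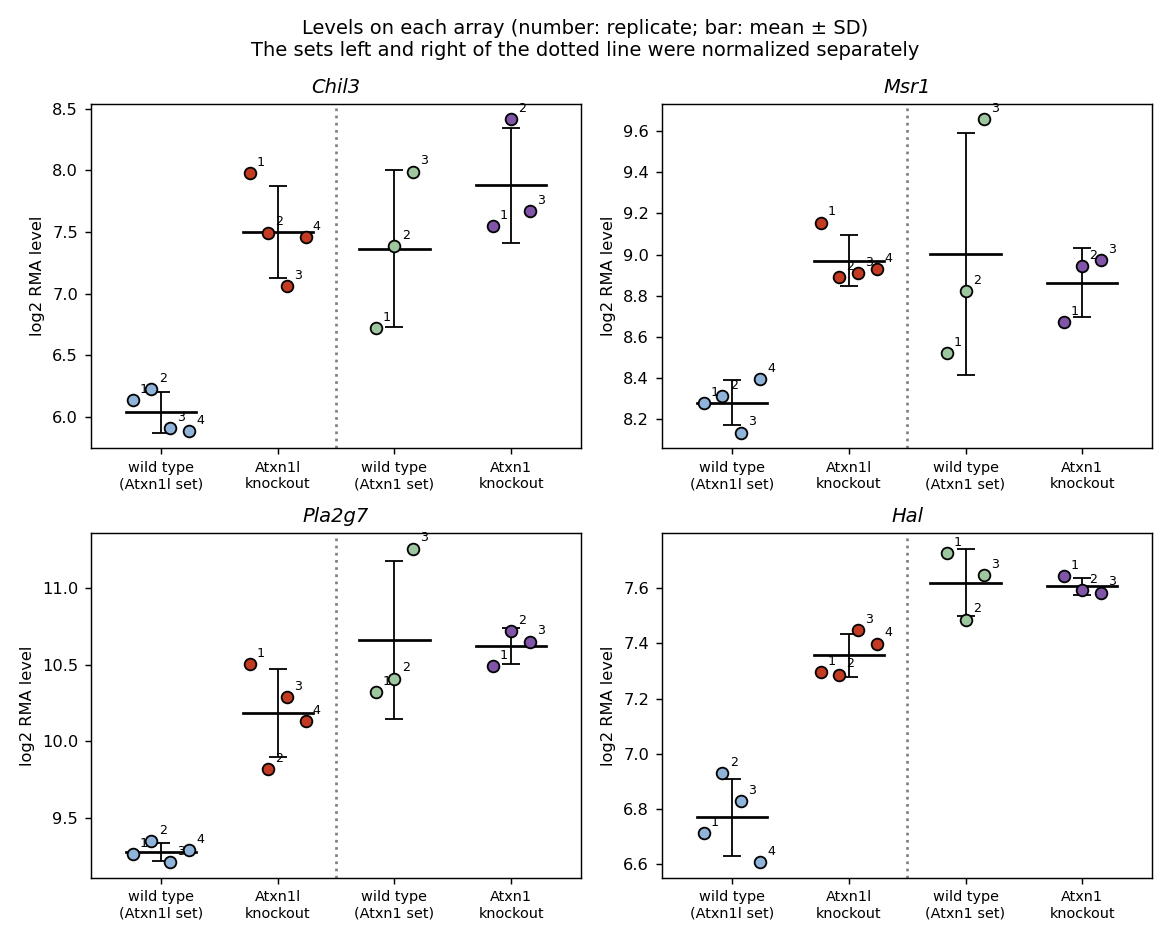
Log2 RMA level of Chil3, Msr1, Pla2g7 and Hal on each of the 14 arrays, with the replicate number beside each point and bars for mean ± SD. In the Atxn1l set the groups do not overlap for any of the 4 genes (gaps of 0.84, 0.49, 0.47 and 0.36), while in the Atxn1 set they overlap for all 4; the sets on either side of the dotted line were normalized separately.

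These counts were fixed by the choice of the genes. Of all probe sets, 0.0424% passed limma's test in this set (9 of 21212, Benjamini-Hochberg adjusted p under 0.05) and 0.0236% passed it with a higher level in the knockouts (5). Every knockout array lay above every wild type in 2.76% and below in 2.56%, and the difference was above 0 in 51.3%. Pla2g7 was the last of the 9 in order of p. The nearest higher gene outside the threshold was Tlr9, a receptor for microbial DNA, with a difference of 0.40 (SE 0.06). The number of the 4 genes that passed was 0 without knockout replicate 4 or wild type replicates 1, 2 or 3, and 1 without knockout replicate 3. It was 3 or 4 without knockout replicates 1 or 2 or wild type replicate 4.

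The sizes moved less than that count. Without knockout replicate 1, the array with high neutrophil genes, the difference was 1.30 (SE 0.12) for Chil3, 0.63 (SE 0.07) for Msr1, 0.80 (SE 0.10) for Pla2g7 and 0.61 (SE 0.08) for Hal. Among the 5 arrays with high Xist, 3 knockouts and 2 wild types, it was 1.44 (SE 0.13) for Chil3, 0.64 (SE 0.08) for Msr1, 0.83 (SE 0.13) for Pla2g7 and 0.66 (SE 0.09) for Hal. These are the differences by which the genes were chosen. Without knockout replicate 1 the neutrophil mean was still higher in the knockouts by 0.36 (SE 0.16), and the part of neutrophil content or Xist in the 4 differences was not tested.

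In the Atxn1 set, which was not used to choose the genes, the groups overlapped for all 4 and limma called none (0% of 21212 probe sets were called at a Benjamini-Hochberg adjusted p under 0.05, and at an unadjusted p under 0.05 limma gave 159 higher and 99 lower). Every knockout lay above every wild type in 2.85% of all probe sets and below in 1.9%, and 47.3% had a difference above 0. Of these 4 genes, 1 had a difference above 0, namely Chil3. Knockout replicates 1 to 3 were at 7.55, 8.41 and 7.67 and wild type replicates 1 to 3 at 6.72, 7.39 and 7.99. All 3 knockouts lay above the middle wild type, but 1 alone lay above the highest. Only knockout replicate 2 and wild type replicate 3 were above the 25th percentile of their arrays. The difference was 0.51 (SE 0.35, 95% interval -0.31 to 1.34, limma unadjusted p = 0.185, adjusted p = 0.999886).

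Msr1 was at 8.67, 8.94 and 8.97 in the Atxn1 knockouts and at 8.52, 8.82 and 9.66 in their wild types. Wild type replicate 3 was above every other array of the set and wild type replicate 1 below. The difference was -0.14 (SE 0.27, 95% interval -0.78 to 0.50, limma unadjusted p = 0.627, adjusted p = 0.999886).

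Pla2g7 showed the same order of wild types, at 10.32, 10.41 and 11.26, with the knockouts at 10.49, 10.72 and 10.65. The 3 knockouts lay between wild type replicates 2 and 3. The difference was -0.04 (SE 0.24, 95% interval -0.60 to 0.52, limma unadjusted p = 0.867, adjusted p = 0.999886).

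Hal was nearly level in this set, at 7.64, 7.59 and 7.58 in the knockouts and 7.73, 7.49 and 7.65 in the wild types. Its knockouts lay between the lowest and the highest wild type. Every Hal level of this set was dim, below the 25th percentile of its own array (7.75 to 7.94). The difference was -0.01 (SE 0.07, 95% interval -0.18 to 0.15, limma unadjusted p = 0.852, adjusted p = 0.999886).

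The direction for Msr1 and Pla2g7 depended on single arrays. Without wild type replicate 3 Msr1 differed by 0.19 (SE 0.13), Pla2g7 by 0.26 (SE 0.08) and Chil3 by 0.82 (SE 0.31), all above 0 and none past the threshold (limma adjusted p = 0.99989 for each). Without knockout replicate 1 Pla2g7 also lay above 0, at 0.0231 (SE 0.28). Wild type replicate 3 was also the neutrophil-rich one and the single wild type with high Xist, and the part of either in these values was not tested. Without wild type replicate 1 the Chil3 difference was 0.19 (SE 0.29), and without knockout replicate 2, the highest for this gene, it was 0.24 (SE 0.35). The difference between the knockouts was not tested, since the genes were chosen for their size in one of them.

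**Figure D2:**
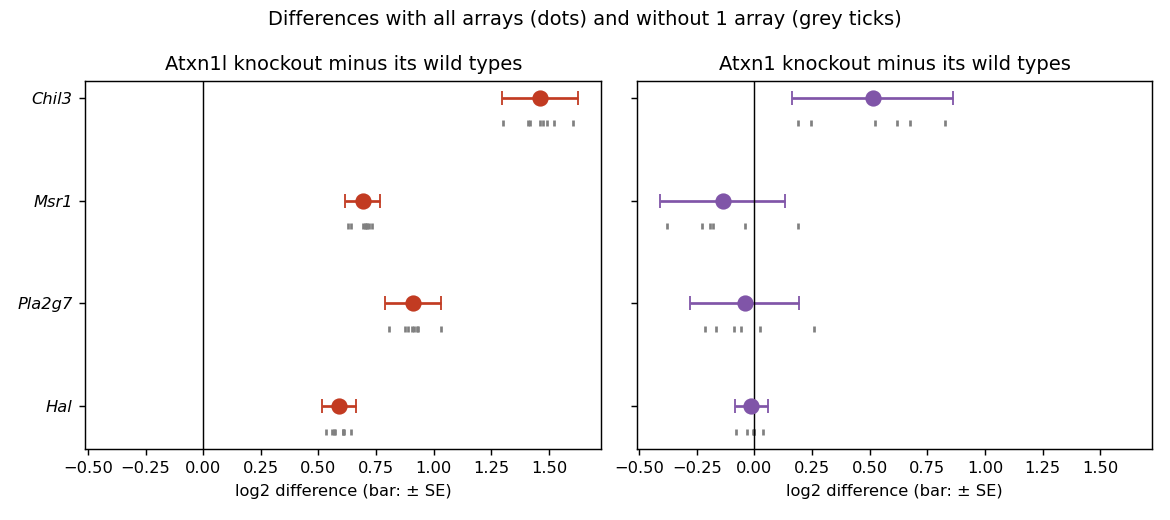
Log2 difference (knockout less wild type) of the 4 genes in each set, as dots with ± SE bars, with a grey tick for each fit without 1 array. Without 1 array the Atxn1l values ranged from 1.30 to 1.61 for Chil3, 0.63 to 0.73 for Msr1, 0.80 to 1.03 for Pla2g7 and 0.53 to 0.64 for Hal, while in the Atxn1 set the ticks of Msr1 (-0.38 to 0.19), Pla2g7 (-0.21 to 0.26) and Hal (-0.0808 to 0.0394) lie on both sides of 0.

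Pearson r over all arrays of a set was highest for Msr1 with Pla2g7, and that of the pairs with Hal changed sign with the arrays used. In the Atxn1 set rho of the levels was highest for Chil3 with Pla2g7, and so was r of the levels without the farthest arrays. For deviations from the group means of that set, both were highest for Msr1 with Pla2g7. Over the 6 arrays of the Atxn1 set, Msr1 and Pla2g7 went together with r = 0.97 (exact permutation p = 0.00694, adjusted p = 0.0417 over the 6 pairs of genes) and rho = 0.89 (exact permutation p = 0.0333, adjusted p = 0.1). Without the arrays farthest from the median of Msr1, r was 0.72 over the remaining 4. Chil3 had r = 0.61 with Msr1 (exact permutation p = 0.196, adjusted p = 0.392) and rho = 0.77 (exact permutation p = 0.103, adjusted p = 0.206). With Pla2g7 it had r = 0.67 (exact permutation p = 0.161, adjusted p = 0.392) and rho = 0.94 (exact permutation p = 0.0167, adjusted p = 0.1). Without the arrays farthest from the Chil3 median these values of r were 0.91 and 0.97, over 4 arrays. Hal had r = -0.34 with Chil3 (exact permutation p = 0.544, adjusted p = 0.817), -0.10 with Msr1 (exact permutation p = 0.824, adjusted p = 0.881) and 0.06 with Pla2g7 (exact permutation p = 0.881, adjusted p = 0.881). Its rho was -0.14 with Chil3 (exact permutation p = 0.803, adjusted p = 0.963), -0.26 with Msr1 (exact permutation p = 0.658, adjusted p = 0.963) and -0.03 with Pla2g7 (exact permutation p = 1.0, adjusted p = 1.0). Without the arrays farthest from the median of the partner gene, r with Hal was 0.73, -0.26 and 0.45 over 4 arrays. For the deviations in this set, r was 0.98 for Msr1 with Pla2g7 (exact permutation, adjusted p = 0.0333). It was 0.83 for Chil3 with Msr1 and 0.81 for Chil3 with Pla2g7 (exact permutation, adjusted p = 0.0833 for both). Hal had -0.34 with Chil3, -0.12 with Msr1 and 0.06 with Pla2g7. Without the farthest arrays the first 3 were 0.90, 0.65 and 0.37 over 4 arrays. Those of Hal were then -0.98, 0.21 and 0.55. All tests were two-sided.

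In the Atxn1l set the groups did not overlap, so the deviations of the arrays from their group means were compared. Over its 8 arrays r was 0.67 for Msr1 with Pla2g7 (exact permutation p = 0.0903 within groups, adjusted p = 0.542) and 0.61 for Chil3 with Msr1 (exact permutation p = 0.208, adjusted p = 0.625), with rho of 0.71 and 0.48 (exact permutation p = 0.0625 and 0.278, adjusted p = 0.375 and 0.833). It was 0.36 for Chil3 with Pla2g7 (exact permutation p = 0.639, adjusted p = 0.700). Hal had 0.14 with Pla2g7, -0.14 with Chil3 and -0.44 with Msr1 (exact permutation p = 0.694, 0.700 and 0.314, adjusted p = 0.700, 0.700 and 0.628). None of the 6 pairs passed in this set. Without the arrays farthest from the median, the first 3 of these pairs had r of 0.41, 0.13 and 0.19 over 6 arrays. Hal then had 0.31 with Pla2g7, 0.53 with Chil3 and 0.23 with Msr1, so its pairs no longer had the lowest values.

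Over the 14 deviations of both sets together, r was 0.89 for Msr1 with Pla2g7, 0.76 for Chil3 with Msr1 and 0.67 for Chil3 with Pla2g7, and -0.22, -0.18 and 0.09 for Hal with Chil3, Msr1 and Pla2g7. Without the pair of neutrophil-rich arrays, the first 3 values were 0.47, 0.55 and 0.12 over 12 arrays, and those of Hal were -0.28, -0.56 and 0.22. Pla2g7 then had a higher r with Hal than with Chil3. The arrays left out were also those with the highest macrophage and monocyte means of their sets. Which of these the change in r goes with was not tested. These values over 14 or 12 arrays are descriptions, and the arrays of a set share their normalization.

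Chil3, Msr1 and Pla2g7 had a higher r with the macrophage genes of the lung than Hal had. Over 14 arrays the deviation of the mean of 21 macrophage genes (Csf1r, C1qb, Fcer1g, Laptm5 and others) had r = 0.76 with Chil3, 0.73 with Msr1 and 0.84 with Pla2g7, against -0.07 with Hal. Without the neutrophil-rich arrays these values were 0.54, 0.73, 0.73 and 0.10. For the mean of 18 neutrophil genes r was 0.71, 0.78, 0.82 and 0.07 over 14 arrays, and 0.18, 0.03, -0.03 and 0.44 over the remaining 12. For 8 monocyte genes it was 0.70, 0.96, 0.92 and -0.05, and 0.20, 0.78, 0.54 and -0.18 over 12. Over these 12 arrays a high r was not particular to macrophage genes, since the mean of 8 lung epithelial and endothelial genes had 0.69 with Chil3 and 0.60 with Msr1, against -0.01 with Pla2g7 and -0.68 with Hal. Hal, grouped with the other 3 as a macrophage gene, had the lowest r of the 4 with the macrophage mean over 14 and over 12 arrays. The deviations of Hal followed the 25th percentile of all probe sets on an array (r = 0.65 over 14 arrays, 0.66 over 12), for which Chil3, Msr1 and Pla2g7 had -0.32, -0.42 and -0.30. That percentile was 6.88 to 6.98 in the Atxn1l knockouts and 6.85 to 6.997 in their wild types, which overlap, while the Hal levels of these groups do not, and its part in the Hal values was not tested. Genes of skin, a tissue where Hal is active, had a list mean (5 genes) with r = 0.66 with Hal over 14 arrays, and their mean was 6.83 to 6.96 in the Atxn1l knockouts and 6.86 to 6.98 in the wild types. Liver genes, 8 in all, had means of 6.42 to 6.60 and 6.46 to 7.03 there. None of the skin or liver genes had an unadjusted p under 0.05 in the Atxn1l set, and the part of either tissue in the Hal values was not tested.

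**Figure D3:**
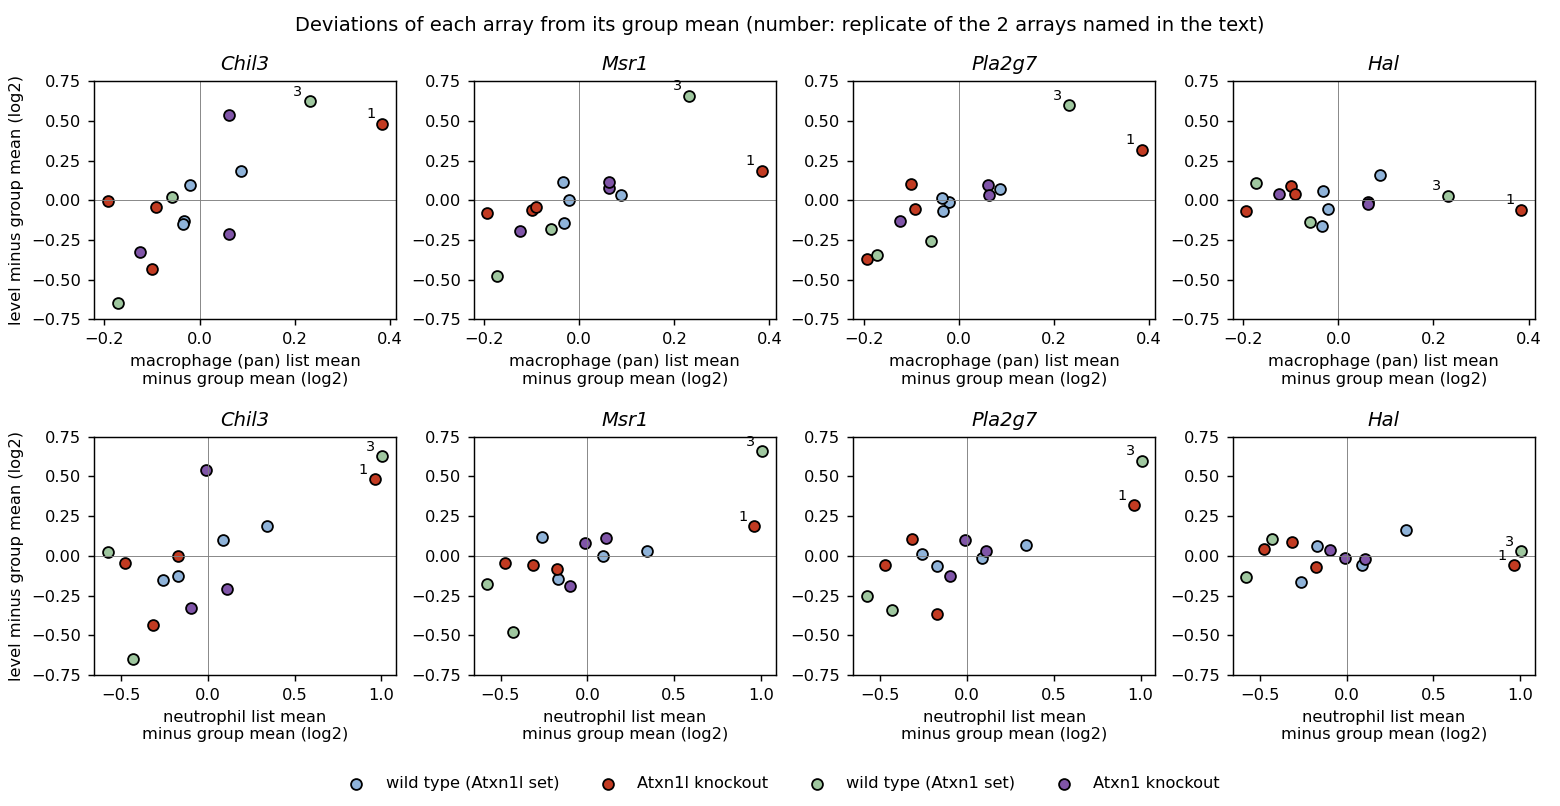
Deviation of each gene from its group mean (y, log2) against the deviation of the mean of 21 macrophage genes (upper row) or 18 neutrophil genes (lower row) on the same array (x, log2), 14 arrays coloured by group. Points for Chil3, Msr1 and Pla2g7 rise with the macrophage mean (r of 0.76, 0.73 and 0.84) and those for Hal do not (-0.07); the numbered points, Atxn1l knockout replicate 1 and wild type replicate 3 of the Atxn1 set, lie far to the right in the neutrophil row.

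Of all other named genes, those whose deviations over the 14 arrays were most like those of the 4 genes were Gm5150, Tlr13, Sycp2, Ccr1, Pirb, Csf3r, Dgat1, Alox5ap, Selplg and Mxd1, with a mean r of 0.65 to 0.67. For each of them the lowest of the 4 correlations was the one with Hal (0.04 to 0.17). Without the neutrophil-rich arrays their mean r was 0.53 to 0.58. Over all other named genes the mean r with 14 arrays had a median of -0.03 and a 95th percentile of 0.40. Taken singly, the closest gene to Chil3 was Tspo (r = 0.92), to Msr1 St3gal4 (r = 0.95), to Pla2g7 Nfam1 (r = 0.98) and to Hal Myh1 (r = 0.93). The next were Sdr39u1 and Adipor2 for Chil3, Ptpn1 and Mtmr10 for Msr1, Fcgr2b and Lcp1 for Pla2g7, and Apom and Olfr1141 for Hal. All of these were picked as the highest r among the named genes, so nothing is read from their size. The median and percentile above are for the mean r and not for a single r. Differences of the closest genes in the Atxn1l set were 0.10 for Tspo, 0.03 for St3gal4, 0.41 for Nfam1 and -0.02 for Myh1. A gene close to a member over arrays within groups was thus not always one that differed between the groups.

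The 4 genes were chosen for their size in the Atxn1l set and the rest of their families were not, so the values of these relatives are set against all probe sets. In the Atxn1l set none of the other 39 measured genes of these families passed limma's test over all probe sets. At an unadjusted p under 0.05, 8 of them (20.5%) were higher and 1 lower, against 4.54% and 3.95% of all probe sets. Chil4 is among the 8, and its probe set may also take up Chil3, so it is not fully apart from the choice. In 3 of the 39 (7.69%) every knockout array lay above every wild type, against 2.76%. Their median difference was 0.04, and 0.00 over all probe sets. In the Atxn1 set 0 of 39 were higher and 2 lower at an unadjusted p under 0.05, against 0.75% and 0.467% of all probe sets, and the median difference was 0.01.

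Among 9 other chitinases and chitinase-like genes, Chil1 (YKL-40 or BRP-39, a secreted chitinase-like protein) had a difference of 0.33 (SE 0.10, limma unadjusted p = 0.00806, adjusted p = 0.419) in the Atxn1l set. Chil4 had 0.22 (SE 0.09, limma unadjusted p = 0.0342, adjusted p = 0.552). The groups overlapped for both. The catalytically active chitinases Chia1 and Chit1 had 0.06 (SE 0.25) and 0.08 (SE 0.10). Chil1 in the Atxn1 set had -0.02 (SE 0.07) and Chil4 0.06 (SE 0.06).

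Among 16 other scavenger receptors, Marco, the class A receptor of alveolar macrophages, had 0.36 (SE 0.10, limma unadjusted p = 0.0044, adjusted p = 0.366) in the Atxn1l set, with 3 of 4 knockouts above all wild types. Cxcl16, a chemokine that also binds oxidised lipoprotein, had 0.22 (SE 0.09), and Stab2, a hyaluronan receptor of sinusoidal endothelium, 0.11 (SE 0.05), the latter with every knockout above every wild type though by a narrow gap. Cd36, a fatty acid transporter of endothelium and macrophages, had -0.19 (SE 0.06), with every knockout below every wild type. Cd163, the haemoglobin scavenger receptor, had -0.13 (SE 0.09) and Olr1 0.19 (SE 0.15). None of these 16 passed in either set, and Marco had 0.03 (SE 0.09) in the Atxn1 set.

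Of 8 other genes that make, sense or break down platelet-activating factor, 3 were higher at an unadjusted p under 0.05 in the Atxn1l set. Pla2g4a, the cytosolic phospholipase that frees its precursor, had 0.28 (SE 0.06, limma unadjusted p = 0.000584, adjusted p = 0.248). Lpcat2, the acyltransferase that completes it in leukocytes, had 0.55 (SE 0.14), and for both every knockout lay above every wild type. Ptafr, its receptor, had 0.45 (SE 0.15), with 3 of 4 knockouts above. Lpcat1, an acyltransferase that also makes it, had -0.07 (SE 0.04), with every knockout below every wild type. The intracellular hydrolase genes had values of -0.00 (Pafah2), -0.11 (Pafah1b1), -0.03 (Pafah1b2) and 0.04 (Pafah1b3). None passed over all probe sets. Lpcat2 in the Atxn1 set had -0.03 (SE 0.13), Ptafr 0.01 (SE 0.09) and Pla2g4a 0.00 (SE 0.07).

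The other 6 genes of histidine and histamine metabolism gave no difference in the Atxn1l set at an unadjusted p under 0.05. Uroc1, Amdhd1 and Ftcd, which carry on the pathway that Hal opens, had 0.00 (SE 0.08), 0.13 (SE 0.11) and 0.04 (SE 0.09). Hdc, which turns histidine into histamine, had -0.09 (SE 0.11). Aoc1 in the Atxn1 set, a diamine oxidase that degrades histamine, had -0.55 (SE 0.15, limma unadjusted p = 0.00941, adjusted p = 0.999886) and Hdc -0.26 (SE 0.10), and neither passed.

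**Figure D4:**
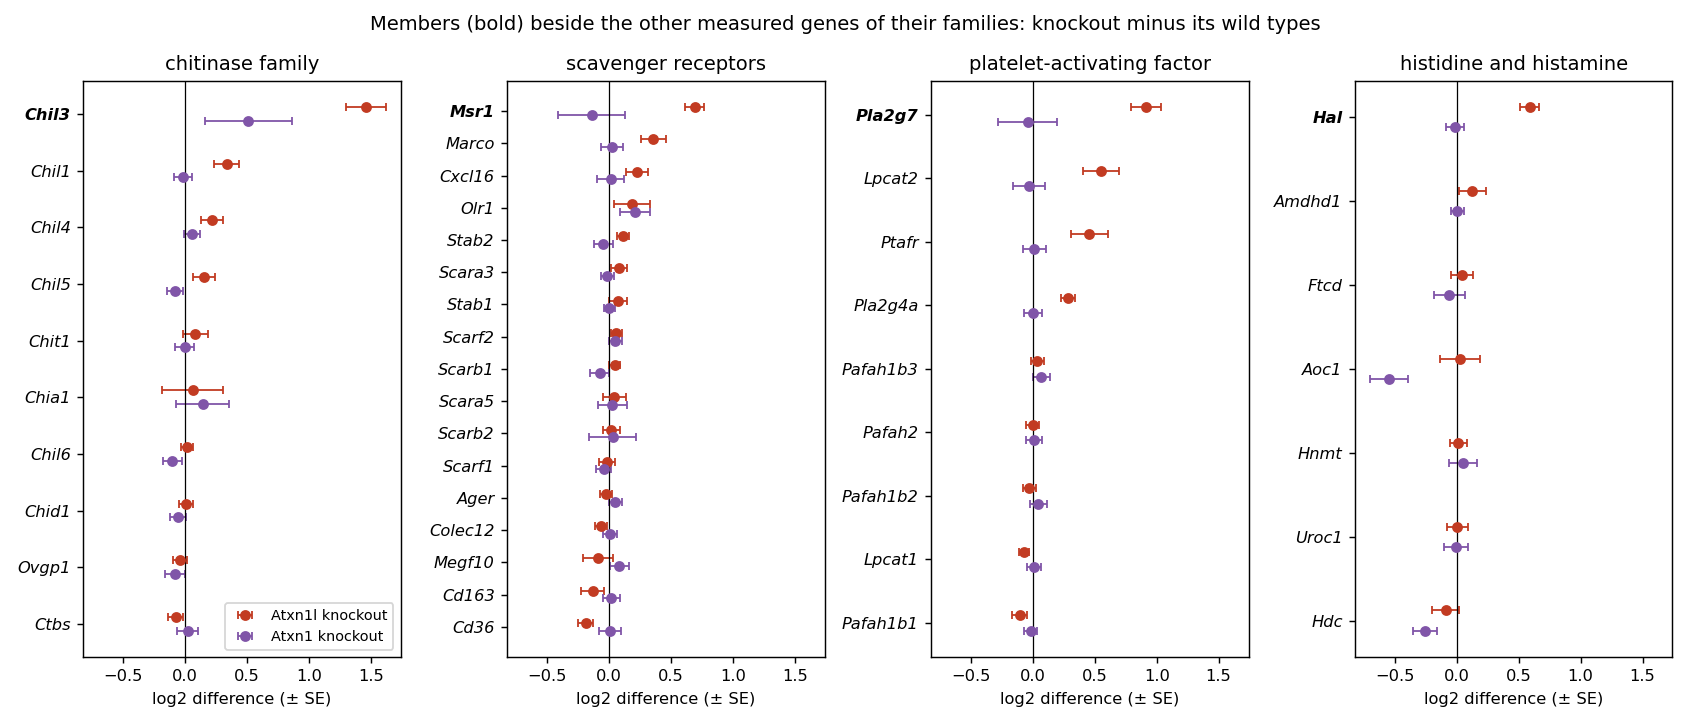
Knockout minus wild type (log2, ± SE) for each measured gene of the 4 families, in the Atxn1l set (red, 4 against 4 arrays) and the Atxn1 set (purple, 3 against 3), with Chil3, Msr1, Pla2g7 and Hal in bold at the top. The 39 other genes lie between -0.19 and 0.55 in the Atxn1l set and between -0.55 and 0.21 in the Atxn1 set.

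The mean of general macrophage markers lay higher on every Atxn1l knockout array than on any wild type, while that of alveolar macrophage markers overlapped between the groups. Of 21 macrophage genes, 19 were above 0, 14 (66.7%) were higher at an unadjusted p under 0.05 and in 12 (57.1%) every knockout lay above every wild type, with none past the threshold over all probe sets and a median of 0.38. The 4 with the smallest p were C1qb (0.85, SE 0.15), the growth factor receptor Csf1r (0.48, SE 0.09), the Fc receptor chain Fcer1g (0.55, SE 0.11) and Laptm5 (0.38, SE 0.07). The 2 below 0 were Mertk (-0.21, SE 0.10) and Cd163 (-0.13, SE 0.09). The list mean was 9.75 to 10.33 in the knockouts and 9.53 to 9.65 in the wild types, higher by 0.38 (SE 0.13) and, without knockout replicate 1, by 0.25 (SE 0.04). Of 16 alveolar macrophage genes, 11 were above 0 and 4 were higher at an unadjusted p under 0.05, with a median of 0.05. They were Marco, Csf2ra (0.25, SE 0.08), Ctsk (0.44, SE 0.15) and Csf2rb (0.47, SE 0.16), where Csf2ra and Csf2rb encode the receptor chains of GM-CSF and Ctsk a cysteine protease. The alveolar mean was 9.02 to 9.31 against 8.93 to 9.06, and its difference of 0.11 (SE 0.07) was 0.04 (SE 0.03) without knockout replicate 1.

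Growth and transcription factors of macrophages were above 0 in 12 of 14, with 8 higher at an unadjusted p under 0.05 and a median of 0.20. They included Irf8 (0.28, SE 0.05) and Spi1, which encodes PU.1 (0.39, SE 0.11). This list shares genes with the macrophage and alveolar macrophage lists, so its counts are not separate from theirs. Csf1r, Spi1, Csf2ra and Csf2rb were counted as higher there too. Of 8 monocyte genes all were above 0 and 5 were higher at an unadjusted p under 0.05, with a median of 0.46, among them Itgam (0.83, SE 0.23) and Plac8 (0.61, SE 0.15). Neutrophil genes were above 0 in 18 of 18 with 8 higher at an unadjusted p under 0.05. Their mean was 8.16 to 9.60 against 7.70 to 8.30, higher by 0.68 (SE 0.35) and without knockout replicate 1 by 0.36 (SE 0.16). Genes of alternative activation, where Chil3 is a common marker, were above 0 in 11 of 14 besides Chil3 itself, with 2 higher and 1 lower at an unadjusted p under 0.05. They were Retnla (0.77, SE 0.29), Chil4 and, lower, the chemokine Ccl22 (-0.22, SE 0.08). Chil4 was dim, and its probe set may also take up Chil3. None of these genes passed over all probe sets. The shares higher at an unadjusted p under 0.05 were 57.1% (growth and transcription factors), 62.5% (monocyte), 44.4% (neutrophil) and 14.3% (alternative activation). Over all probe sets 4.54% were higher and 3.95% lower at that threshold, and 51.3% were above 0. The part that numbers of macrophages, monocytes or neutrophils have in the values of Chil3, Msr1, Pla2g7 and Hal was not tested.

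Dendritic cell genes gave 1 of 8 past the threshold, Cd209a, which was lower. The list did not go down with it, since 6 of the 8 were above 0 and the median was 0.06. Xcr1 had 0.47 (SE 0.09), with every knockout above every wild type. Mast cell and eosinophil genes (median 0.01), lymphocyte genes (median 0.08), erythroid genes (median 0.03) and lung epithelial and endothelial genes (median -0.03) had none past it. In the Atxn1 set no gene of any list passed, and macrophage, alveolar macrophage, monocyte and neutrophil genes had medians of 0.03, 0.04, -0.05 and -0.30, the last -0.29 (SE 0.51) as a mean with wild type replicate 3 and 0.21 (SE 0.09) without it.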

How the data were processed

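Whole lung RNA (100 ng per array) from P6 mice was measured on 14 arrays. The deposited values are log2 levels that the authors made with RMA, per the labels' processing notes and the series' design text, over the 8 arrays of the Atxn1l set and, separately, over the 6 of the Atxn1 set. Versions and the probe set definition are not stated by the sources at hand. The number of arrays limits the precision.

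Differences (knockout minus wild type within a set) were fitted over all 21212 probe sets with limma 3.58.1 in R 4.3.3 (lmFit, eBayes, no covariate, two-sided), with Benjamini-Hochberg adjustment over all of them and a threshold of 0.05. SE and 95% intervals are limma's, while SE of list means come from the spread between arrays. The step was tested on simulated data with 200 changed genes. Correlations used Python 3.11.15 with exact permutation of arrays.

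The platform table gave 1 symbol for 18786 probe sets, several for 6 and none for 2420. Of 198 memberships in 17 lists, 184 were measured. List counts leave out Chil3, Msr1, Pla2g7 and Hal. Genes named were the 4, all of their families, of each other list the 4 with the smallest p in a set, and, for likeness, the 10 highest mean r and the 3 highest r per gene. Mertk was named besides, as a macrophage gene below 0. The 4 genes and the lists were chosen with earlier results of these data known. Settings tried are in the closing section. Promoters are from RefSeq, GRCm38.p6.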

Additional observations from a re-analysis of the deposited data

Results flagged for a closer look

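Among 42 sets of 4 values in the Atxn1l set (the 4 genes and 17 list means, in knockouts and wild types), 2 had an array far from the other 3, where chance gives about 1 in 20. Msr1 on knockout replicate 1 was at 9.16, with the next knockout at 8.93. The mean of the 21 macrophage genes on wild type replicate 2 was 9.65, with the next wild type at 9.54. Without these arrays the Msr1 difference was 0.63 and 0.70.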

How the results depend on the processing

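The Atxn1l differences of Chil3, Msr1, Pla2g7 and Hal stayed above 0 and within 1 SD of the reported values in each of the 16 or 17 other settings (a replicate block, median centring, joint quantile normalization, cyclic loess, an Xist covariate, only high-Xist arrays, array weights, a trended robust eBayes prior, removal of dim probe sets, and leaving out each array). The high-Xist setting was chosen after seeing the data. The filter removed Chil3 in both sets and Hal in the Atxn1 set, so it gave no value there. The number of the 4 genes called in the Atxn1l set was 4, ranged from 0 to 4 without 1 array, and was 1 with the replicate block. The block cut the called probe sets of that set from 9 to 2 and left 0 in the Atxn1 set. Same-numbered arrays deviated together by r of 0.04 to 0.38 in the Atxn1l set, all above 0, and -0.42 to 0.42 in the Atxn1 set. In these sets 5 of 8 and 2 of 6 arrays correlated best with their own number. These values do not settle whether the numbers mark pairs, so a pairing in the Atxn1l set remains possible.

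In the Atxn1 set Chil3 moved to -0.0944 with array weights, Msr1 and Pla2g7 to -0.72 and -0.57 with the same weights (limma adjusted p = 0.139 and 0.149, Benjamini-Hochberg), and Hal to 0.0138 with joint quantile normalization and 0.0186 with cyclic loess. The cause was not tested. Without 1 array Msr1 ranged from -0.38 to 0.19, Pla2g7 from -0.21 to 0.26 and Hal from -0.0808 to 0.0394, and r for Chil3 with Hal from -0.80 to 0.41, Msr1 with Hal from -0.70 to 0.40 and Pla2g7 with Hal from -0.33 to 0.60. In the Atxn1l set r ranged from -0.47 to 0.76 for Chil3 with Pla2g7, -0.48 to 0.18 for Chil3 with Hal and -0.20 to 0.48 for Pla2g7 with Hal. All values of r for the Atxn1 set given here are of the levels. That of Msr1 with Pla2g7 stayed between 0.86 and 0.99 without 1 array. It did not pass over 5 arrays (exact permutation, lowest adjusted p = 0.1). With so few orderings of 5 arrays, a lone pair among 6 cannot reach an adjusted p under 0.05, so nothing is read from that. Mean r over the 6 pairs ranged from 0.13 to 0.55 in the Atxn1 set and 0.01 to 0.34 in the Atxn1l set.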
